A study of Mus musculus with 16 samples.

Results

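The tumor suppressor p53, encoded by Trp53 in the mouse, is a transcription factor that is stabilized after DNA damage and then switches on genes that hold the cell cycle, repair DNA or start apoptosis. Its level is set by the ubiquitin ligase MDM2 and the related inhibitor MDM4, and Mdm2 is itself a p53 target, which closes a feedback loop. Ercc1 encodes a subunit of the structure-specific endonuclease that cuts damaged strands in nucleotide excision repair and in the repair of crosslinks. The genes described here are 31 named genes of the p53 pathway, chosen by symbol from the deposited counts of microglia, macrophages that reside in the brain. By role they comprise 5 regulators (Trp53, Mdm2, Mdm4, Ppm1d and Wrap53), 9 genes of cell cycle arrest and stress response (Cdkn1a, Ccng1, Gadd45a, Btg2, Plk2, Plk3, Sesn1, Sesn2 and Zmat3), 14 genes of apoptosis or cell death (Bax, Bbc3, Pmaip1, Apaf1, Aen, Fas, Tnfrsf10b, Eda2r, Perp, Pidd1, Phlda3, Ei24, Trp53inp1 and Dram1) and 3 repair genes (Rrm2b, Ddb2 and Polk). All 31 had an entry among the 53700 listed genes, and 29 of them were among the 17090 genes kept by a filter on low counts.

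The libraries fell into 4 groups of 4: mice labelled Ercc1 KO at 6 weeks, WT mice at 6 weeks, Ercc1 KO mice at 12 weeks and WT mice at 12 weeks, all on a C57Bl6J/FVB cross. Bulk RNA came from live CD11b-high, CD45-intermediate, Ly6c-negative cells sorted from whole brain, so fewer cells of a type and less RNA per cell cannot be told apart. The labels give only ko or wt as genotype; no allele or promoter is given in the sources used here. Sexes were matched between genotypes, with 2 males and 2 females per group at 6 weeks and 3 males and 1 female per group at 12 weeks.

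The targeted gene Ercc1 lay between 2.83 and 4.54 CPM, counts scaled to the size of each library, in 6-week KO libraries and between 13.5 and 30.6 CPM in 6-week WT libraries (adjusted p = 0.21 in the edgeR test described with the members). At 12 weeks it lay between 0.425 and 6.77 CPM in KO and between 7.46 and 49.2 CPM in WT (edgeR adjusted p = 0.105), so the groups did not overlap at either age. Depth was 9885121 to 17499408 counts at 6 weeks in KO libraries and 8250645 to 13278797 in WT libraries, and at 12 weeks 7882182 to 9653663 in KO libraries and 9045823 to 22142972 in WT libraries. One 12-week WT library, replicate 5_6, carries 2 animal numbers in its title and is labelled male. It held 339.5 CPM of Xist beside a sum of 109 CPM for 4 Y genes, where the other 9 male libraries had at least 258 CPM of the Y genes and the 6 female libraries at most 9.85 CPM. Correlations between replicates were lowest in 12-week WT, at 0.814 to 0.865 across genes, and results are given without single libraries where that changed a call. Summed CPM of 10 microglia markers was 58450 to 68490 in 6-week KO and 69960 to 76830 in 6-week WT, and 50430 to 52850 in 12-week KO and 63550 to 71360 in 12-week WT. With edgeR P2ry12 was called lower in KO at both ages, and Gpr34 and Cx3cr1 at 12 weeks; DESeq2 called 3 of the 10 lower at 6 weeks and 5 at 12 weeks. Their part in the results on the p53 genes was not tested.

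The promoters of a few members are shown, as the 250 bases before the start of transcription in the RefSeq sequences. The upstream start of Cdkn1a and the promoter of Ccng1 hold a p53 site of 20 bases. Within the 250 bases searched, the promoters of Mdm2 and Bax hold only a half-site of 10 bases. Sites outside these windows, such as in introns, were not searched. A half-site was found in 12 members, and the others of these are not shown. The downstream start of Cdkn1a is shown beside its upstream start. The capitals mark matches to the p53 half-site consensus of 10 bases on either strand, or to the p53 site of 20 bases without spacer with at most 1 mismatch; the Cdkn1a sequences come first, upstream start before downstream start, and all run 5′ to 3′ on the strand of the gene.
Cdkn1a, upstream start: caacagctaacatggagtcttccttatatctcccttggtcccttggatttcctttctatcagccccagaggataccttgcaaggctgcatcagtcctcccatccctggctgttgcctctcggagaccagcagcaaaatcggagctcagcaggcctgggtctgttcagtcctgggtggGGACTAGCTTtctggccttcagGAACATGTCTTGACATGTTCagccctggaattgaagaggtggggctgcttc
Cdkn1a, downstream start: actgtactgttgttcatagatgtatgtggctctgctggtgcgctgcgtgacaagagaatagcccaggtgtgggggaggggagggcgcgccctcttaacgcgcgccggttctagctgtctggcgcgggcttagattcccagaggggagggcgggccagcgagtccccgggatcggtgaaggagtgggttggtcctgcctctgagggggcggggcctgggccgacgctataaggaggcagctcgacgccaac
Ccng1: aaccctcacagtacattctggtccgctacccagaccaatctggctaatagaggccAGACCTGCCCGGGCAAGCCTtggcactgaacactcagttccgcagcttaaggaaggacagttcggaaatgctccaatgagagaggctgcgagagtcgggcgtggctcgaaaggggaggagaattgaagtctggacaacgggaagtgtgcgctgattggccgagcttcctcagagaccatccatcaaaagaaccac
Mdm2: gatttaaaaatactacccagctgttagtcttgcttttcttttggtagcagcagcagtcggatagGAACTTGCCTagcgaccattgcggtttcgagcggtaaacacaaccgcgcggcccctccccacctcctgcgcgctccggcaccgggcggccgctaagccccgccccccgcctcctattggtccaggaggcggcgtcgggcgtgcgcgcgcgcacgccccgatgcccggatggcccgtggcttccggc
Bax: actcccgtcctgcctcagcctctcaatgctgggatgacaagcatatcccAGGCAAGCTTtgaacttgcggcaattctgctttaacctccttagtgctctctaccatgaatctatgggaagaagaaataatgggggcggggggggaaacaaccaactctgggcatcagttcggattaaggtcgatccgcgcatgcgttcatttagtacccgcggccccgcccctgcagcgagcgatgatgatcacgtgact
On build GRCm38.p6 these lie at chr17:29090729-29090978 (plus strand) and chr17:29093519-29093768 (plus strand) for Cdkn1a, at chr11:40755287-40755536 (minus strand) for Ccng1, at chr10:117710759-117711008 (minus strand) for Mdm2 and at chr7:45466899-45467148 (minus strand) for Bax. The upstream Cdkn1a start held 2 half-sites, whose first bases lie 73 and 51 bases before the start with 12 bases between them, and the second of them opens the 20-base site. No match was found in the window of the downstream Cdkn1a start, 2790 bases away. The 24 of 31 members with an entry had 32 promoters, and 12 of the 32 (37.5%) held a half-site, against 7.13% of 32851 mouse promoters of the same length. The windows of Trp53 and Wrap53, which share a locus, overlap. Among the members with an entry, only Cdkn1a and Ccng1 had the 20-base site, which 0.0761% of all promoters held. Pmaip1, Zmat3, Rrm2b, Ddb2, Perp, Trp53inp1 and Tnfrsf10b had no entry and were not searched. The members were chosen as p53 genes, so a high share is part of that choice, and a match is a run of letters and no measure of binding.

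At 12 weeks, 2 of the 29 tested members passed the threshold, a Benjamini-Hochberg adjusted p of 0.05 over all genes in edgeR's quasi-likelihood test, and both were higher in KO. They were Cdkn1a, which encodes the cyclin-dependent kinase inhibitor p21, and Pmaip1, which encodes the BH3-only protein NOXA. Of all 17090 tested genes, 2.98% passed at this age, 2.03% higher and 0.954% lower. At 6 weeks 0 of the 29 members passed, against 0.872% of all genes (0.796% higher and 0.0761% lower). At that age, 3 members had an unadjusted p under 0.05, against 7.31% of all genes, and DESeq2 called 1, Cdkn1a. At 12 weeks 6 members had one, against 14.4% of all genes. DESeq2 called 5 members at 12 weeks, with Cdkn1a, Phlda3, Plk2 and Pmaip1 higher and Sesn1 lower. Of the 17090 genes, DESeq2 called 366 at 6 weeks and 1158 at 12 weeks, where edgeR called 149 and 510. A fit with the replicate number as a block called 0 members at 12 weeks. The median log2 change of the 29 members, KO over WT, was -0.05 at 6 weeks and -0.06 at 12 weeks, beside -0.02 and -0.03 over all tested genes, and 14 of 29 members had a positive change at 6 weeks and 13 of 29 at 12 weeks. With the replicate block the members' 12-week median was 0.36, so its sign depends on the fit. At 12 weeks only replicate numbers 3 and 4 occur in both genotypes. The blocked fit therefore compares 2 KO with 2 WT libraries at that age.

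**Figure D1:**
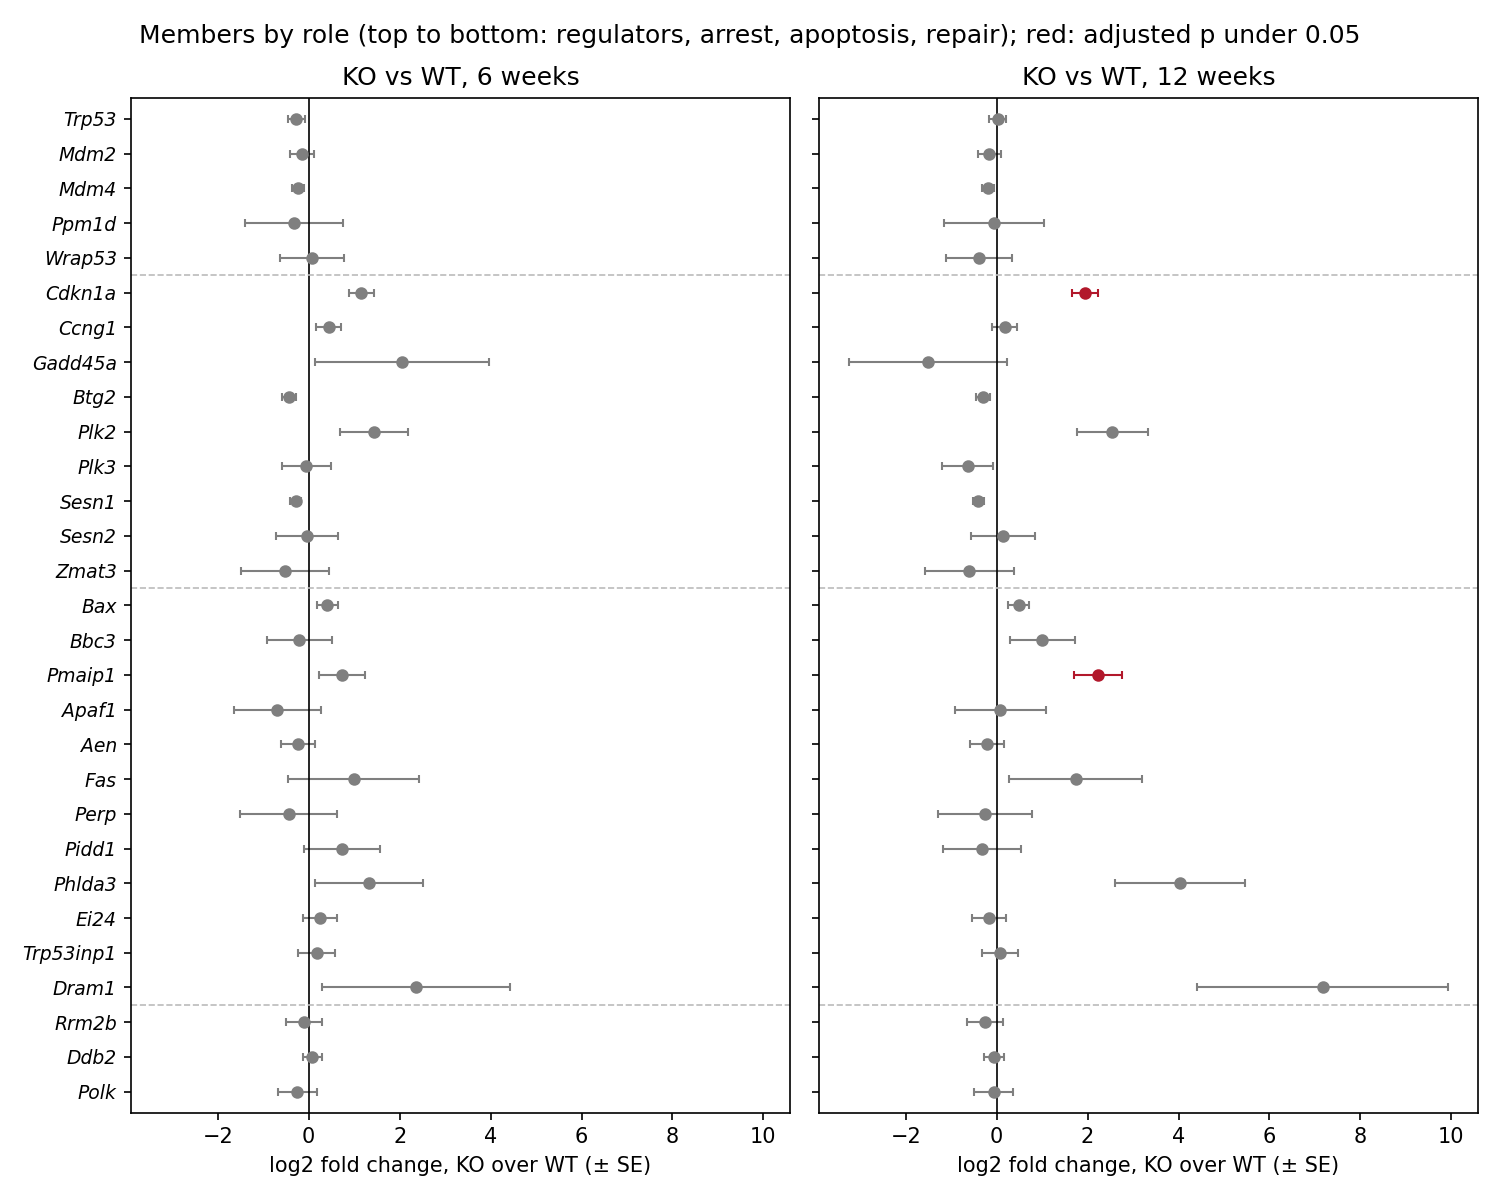
Log2 change of each tested member in KO against WT microglia (x axis, log2; bars are the approximate standard error) at 6 and 12 weeks, grouped by role down the page. Red points mark Cdkn1a and Pmaip1 at 12 weeks, the 2 values past the threshold; at both ages the other members spread to both sides of 0.

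Cdkn1a had 47.7, 74.6, 87.2 and 69.5 CPM in 6-week KO replicates 1 to 4, and 25.0, 33.3, 23.5 and 41.0 CPM in 6-week WT replicates 1 to 4. The 12-week values were 90.7, 135, 121 and 138 CPM in KO replicates 1 to 4, and 46.3, 24.9, 17.8 and 39.6 CPM in WT replicates 3, 4, 5_6 and 8. The lowest KO library lay above the highest WT library at each age, and every 12-week KO library lay above every 6-week KO library, whereas the WT libraries of both ages overlapped. The 12-week mean of 121 ± 21.6 CPM in KO was 3.77 times the mean of 32.1 ± 13.1 CPM in WT (SD, n = 4 each), a log2 change of 1.94 ± 0.29 (SE) with an edgeR adjusted p of 0.00097. At 6 weeks the means were 69.8 ± 16.5 CPM in KO and 30.7 ± 8.12 CPM in WT (SD, n = 4 each), a log2 change of 1.16 ± 0.28 (SE) with an edgeR adjusted p of 0.082. The 6-week value passed in 5 of 25 alternatives, which were DESeq2 (adjusted p = 0.0039), no filter on low counts, the fit without 12-week WT replicates 3 and 8, and the fits without 6-week WT replicate 4 (0.048) and without 12-week WT replicate 5_6 (0.043); the 12-week libraries enter the shared estimate of spread. The 12-week call held in 24 of 25 alternatives, with a log2 change of 1.77 to 2.50, and in the fit with a replicate block its adjusted p was 0.096. By the GENCODE M21 annotation, 273 bases of the Cdkn1a exons overlap a gene on the opposite strand, and the strand setting of the counts is not given in the sources used here.

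Pmaip1 had 42.1, 49.0, 18.8 and 41.1 CPM in 6-week KO replicates 1 to 4, and 9.38, 25.6, 28.1 and 28.4 CPM in 6-week WT replicates 1 to 4. Its 12-week values were 51.1, 69.5, 58.4 and 59.2 CPM in KO, and 14.6, 9.69, 23.9 and 2.22 CPM in WT replicates 3, 4, 5_6 and 8. The groups overlapped at 6 weeks, through KO replicate 3, and were apart at 12 weeks. The 12-week mean was 59.5 ± 7.57 CPM in KO and 12.6 ± 9.09 CPM in WT (SD, n = 4 each), a ratio of 4.73 and a log2 change of 2.23 ± 0.53 (SE) with an edgeR adjusted p of 0.032. The 6-week change was 0.74 ± 0.51 (edgeR adjusted p = 0.92). The 12-week call held in 16 of 25 alternatives and was lost without WT replicate 3 or 4, without KO replicate 2, 3 or 4, without WT replicates 3 and 8 together, in the male-labelled libraries alone, with each age fitted alone and with a replicate block, where the adjusted p ranged from 0.054 to 0.19. The log2 change lay between 1.82 and 2.86 over all 25.

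**Figure D2:**
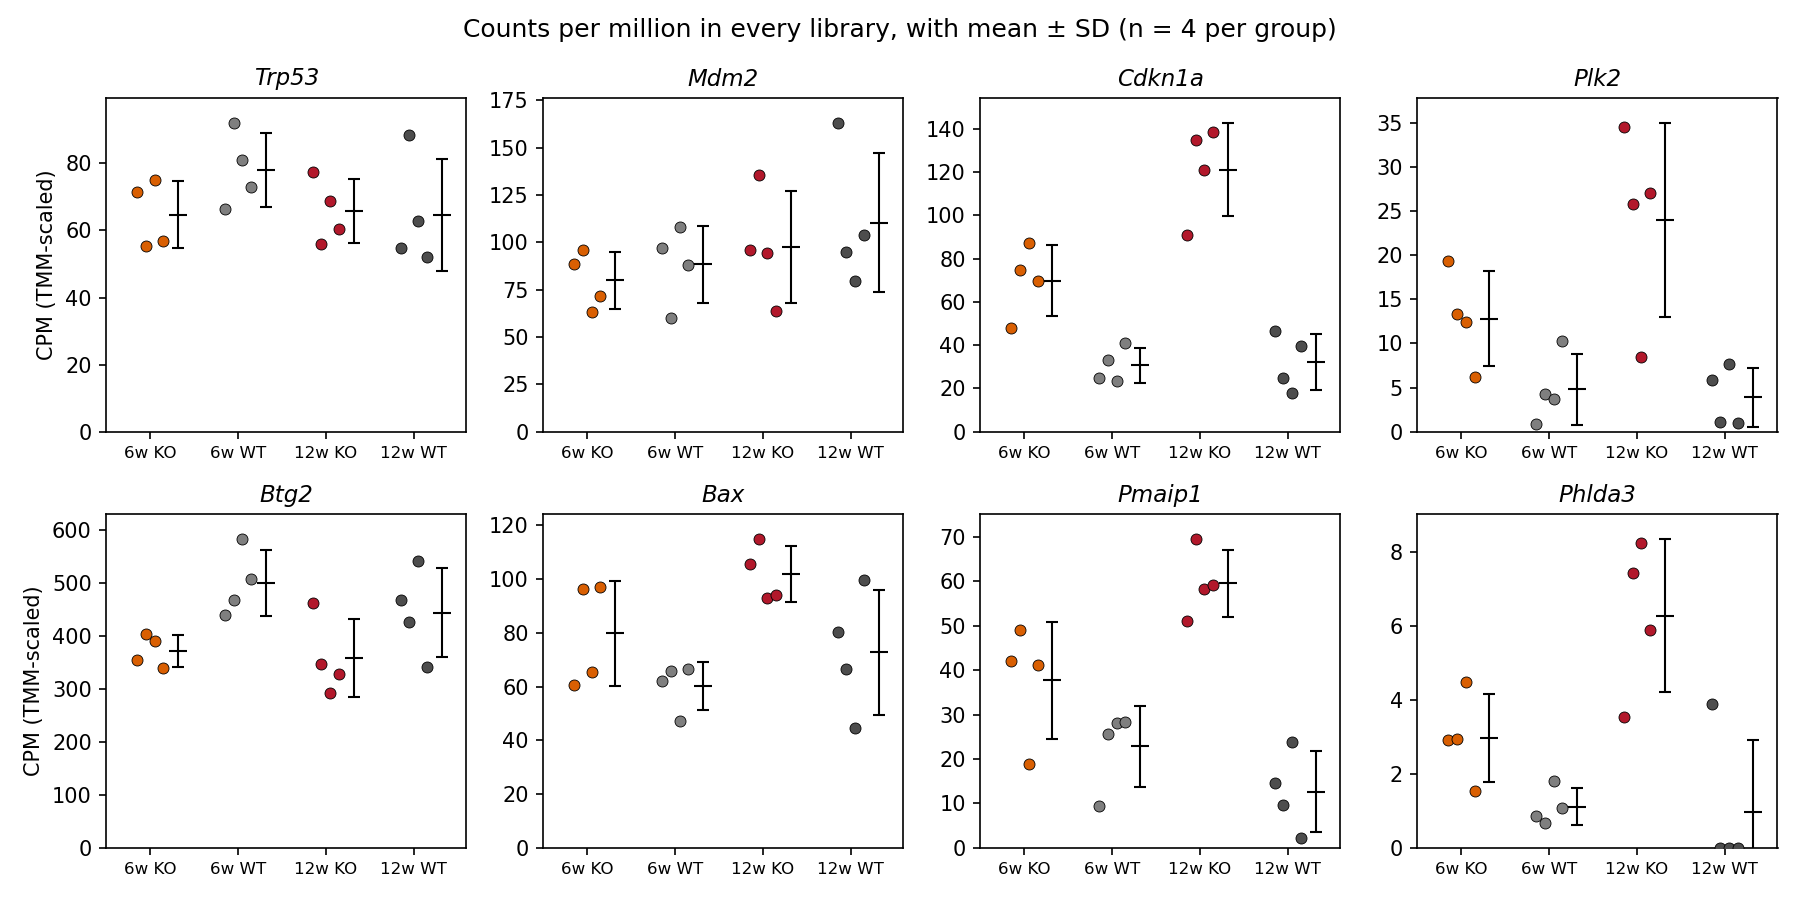
Level in CPM of Trp53, Mdm2, Cdkn1a, Plk2, Btg2, Bax, Pmaip1 and Phlda3 in every library (y axes start at 0; points are libraries, bars the mean and SD of 4, and a bar that would run below 0 is cut there), with KO left of WT at each age. Cdkn1a libraries at 12 weeks sit between 90.7 and 138 CPM in KO and between 17.8 and 46.3 CPM in WT, while those of Trp53 and Mdm2 overlap.

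Of the 5 regulators, 0 passed at either age with edgeR or DESeq2, and 0 had an unadjusted p under 0.05 in edgeR. Trp53 mRNA had 71.6, 55.5, 75.2 and 56.8 CPM in 6-week KO replicates 1 to 4, and 66.5, 92.1, 81.0 and 72.9 CPM in 6-week WT replicates 1 to 4. Libraries of 12 weeks had 77.6, 56.0, 68.8 and 60.4 CPM in KO, and 54.8, 88.5, 62.9 and 52.0 CPM in WT replicates 3, 4, 5_6 and 8. The libraries overlapped at both ages, and the log2 change was -0.27 ± 0.19 at 6 weeks (edgeR adjusted p = 0.94) and 0.02 ± 0.19 at 12 weeks (0.99). The activity of p53 is largely set at the protein level, which these data do not measure.

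Mdm2 had 88.5, 95.7, 63.2 and 71.9 CPM in 6-week KO replicates 1 to 4, and 96.8, 60.1, 108 and 88.1 CPM in 6-week WT replicates 1 to 4. The values at 12 weeks were 96.1, 135.5, 94.5 and 63.8 CPM in KO, and 163, 94.9, 79.6 and 104 CPM in WT replicates 3, 4, 5_6 and 8. Both ages overlapped, with a log2 change of -0.15 ± 0.26 at 6 weeks and -0.16 ± 0.26 at 12 weeks (edgeR adjusted p = 1.00 and 0.88). Its relative Mdm4, which binds p53 and blocks its activity, lay between 172 and 183 CPM in 6-week KO and between 200.5 and 219 CPM in 6-week WT, so those libraries did not overlap. That difference was -0.23 ± 0.13 on the log2 scale (edgeR adjusted p = 0.82), and at 12 weeks the KO range of 160.0 to 248 CPM overlapped the WT range of 176 to 246 CPM. Ppm1d, a phosphatase that turns p53 signalling off again, and Wrap53, a telomerase cofactor encoded beside Trp53, each had mean levels under 10 CPM in all 4 groups and overlapped between KO and WT at both ages.

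Of the 9 arrest and stress-response genes, 1 passed at 12 weeks, Cdkn1a, and 4 had a positive and 5 a negative change at either age. Plk2, a polo-like kinase, lay between 8.49 and 34.6 CPM in 12-week KO and between 0.95 and 7.63 CPM in 12-week WT, without overlap. Its log2 change was 2.55 ± 0.78 (edgeR adjusted p = 0.10), and it passed with DESeq2 (0.0088). At 6 weeks Plk2 overlapped, with 6.15 to 19.3 CPM in KO and 0.862 to 10.3 CPM in WT. Btg2, an antiproliferative gene, had the highest level per length of all members, with 136 CPM per kb of exon in 6-week KO and 182 in 6-week WT. It lay between 339.5 and 405 CPM in 6-week KO and between 439 and 583 CPM in 6-week WT, a change of -0.42 ± 0.15 on the log2 scale (edgeR adjusted p = 0.42). Sesn1, a sestrin that restrains mTORC1, lay between 195 and 223.1 CPM in 6-week KO and between 223.3 and 303 CPM in 6-week WT, so the groups parted by a narrow gap (log2 change -0.29 ± 0.12, edgeR adjusted p = 0.56). At 12 weeks Sesn1 lay between 170.1 and 226.4 CPM in KO and between 226.1 and 313 CPM in WT, which overlap by a narrow margin, a log2 change of -0.41 ± 0.12 (edgeR adjusted p = 0.091; 0.029 with DESeq2). Ccng1, which encodes cyclin G1 and has the 20-base p53 site shown above, lay between 67.9 and 109 CPM in 12-week KO and between 40.1 and 94.8 CPM in 12-week WT, with a log2 change of 0.18 ± 0.27 (edgeR adjusted p = 0.88). The remaining arrest genes were the polo-like kinase gene Plk3, the sestrin gene Sesn2, Zmat3, which encodes an RNA-binding zinc finger protein, and Gadd45a, a gene induced by growth arrest and DNA damage. They overlapped at both ages, and at 12 weeks their log2 changes of -0.64, 0.14, -0.60 and -1.51 each had a standard error above 0.5.

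Bax, the effector that opens the outer mitochondrial membrane in apoptosis, had 60.7, 96.2, 65.3 and 96.9 CPM in 6-week KO replicates 1 to 4, and 62.0, 65.7, 47.4 and 66.4 CPM in 6-week WT replicates 1 to 4. At 12 weeks it had 105.5, 115, 93.1 and 94.0 CPM in KO, and 80.1, 66.5, 44.4 and 99.8 CPM in WT replicates 3, 4, 5_6 and 8. All 4 of the 12-week KO libraries lay above 3 of the 4 WT libraries, and the WT replicate 8 lay within the KO range. The log2 change was 0.41 ± 0.23 at 6 weeks (edgeR adjusted p = 0.82) and 0.49 ± 0.23 at 12 weeks (0.36).

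Bbc3, which encodes the BH3-only protein PUMA, was barely counted. It had 1.95, 2.07, 2.03 and 1.61 CPM in 6-week KO replicates 1 to 4, and 2.37, 1.37, 1.98 and 3.28 CPM in 6-week WT replicates 1 to 4. At 12 weeks it had 2.93, 3.30, 4.43 and 5.52 CPM in KO, and 1.84, 1.99, 3.86 and 0.317 CPM in WT replicates 3, 4, 5_6 and 8. The 12-week groups overlapped through WT replicate 5_6, and the log2 change of 1.01 ± 0.71 did not pass (edgeR adjusted p = 0.61).

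Phlda3, a p53-induced inhibitor of AKT, had 3.54, 7.44, 8.25 and 5.89 CPM in 12-week KO replicates 1 to 4, and 3.89, 0, 0 and 0 CPM in 12-week WT replicates 3, 4, 5_6 and 8. WT replicate 3 alone lay within the KO range. The log2 change of 4.03 ± 1.42 did not pass (edgeR adjusted p = 0.17), and it passed without that replicate (0.00087), where the remaining WT libraries are all at 0 and the fitted change is no measure of size. Apaf1, the scaffold of the apoptosome, lay between 4.58 and 10.1 CPM in 6-week KO and between 10.6 and 13.4 CPM in 6-week WT. That gap was within error (log2 change -0.69 ± 0.96, edgeR adjusted p = 1.00), and at 12 weeks its libraries ranged from 0 to 36.4 CPM in KO and from 1.05 to 24.9 CPM in WT. The nuclease gene Aen, Ei24, and Trp53inp1, a p53 cofactor gene also tied to autophagy, averaged between 13.9 and 30.2 CPM in every group and overlapped at both ages.

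The membrane genes and other low members carried little information at this depth. Fas, a death receptor gene, Perp, which encodes a membrane protein of cell junctions, and Pidd1, which encodes the scaffold of the PIDDosome, averaged at most 10.04 CPM in any group and overlapped at both ages. The death receptor gene Tnfrsf10b failed the filter, with 40 counts over the 4 libraries of 6-week KO and 2 over those of 6-week WT, a ratio of 14.3 (95% counting interval 3.71 to 122). At 12 weeks it had 1 count in KO and 7 in WT (ratio 0.210, interval 0.00466 to 1.64, which includes 1). The receptor gene Eda2r also failed the filter, with 55 counts in 6-week KO, where 2 of the 4 libraries were at 0, and 0 in 6-week WT, at least 13.1-fold higher when WT is taken at the limit of 3 counts for its 4 libraries, and no count in either 12-week group. Dram1, a lysosomal gene of p53-induced autophagy, had 60 counts in 12-week KO, with 2 of the 4 libraries at 0, and 0 counts in 12-week WT, at least 29.4-fold higher. Dram1 was kept by the filter, and its 12-week change did not pass (edgeR adjusted p = 0.24), with libraries that overlapped. At 6 weeks it had 218 counts in KO and 26 in WT, overlapped as well and did not pass (edgeR adjusted p = 0.99). These intervals and floors cover counting error only. Among all 31 members, 17 reached the filter's level in all 16 libraries and 12 were kept although they reached it in fewer.

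Of the 3 repair genes, 0 passed at either age with edgeR or DESeq2, and 0 had an unadjusted p under 0.05 in edgeR. Ddb2, a damage sensor of nucleotide excision repair, lay between 142.3 and 174 CPM in 6-week KO and between 142.2 and 158 CPM in 6-week WT, and between 64.3 and 183 CPM in 12-week KO and between 108 and 161 CPM in 12-week WT. Rrm2b, a ribonucleotide reductase subunit, and Polk, a translesion polymerase, overlapped too, and the 6 log2 changes of the 3 repair genes lay between -0.26 and 0.08. By the GENCODE M21 annotation, 652 bases of the Ddb2 exons and 734 of the Rrm2b exons overlap a gene on the opposite strand. Their levels may therefore include reads of that gene.

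**Figure D3:**
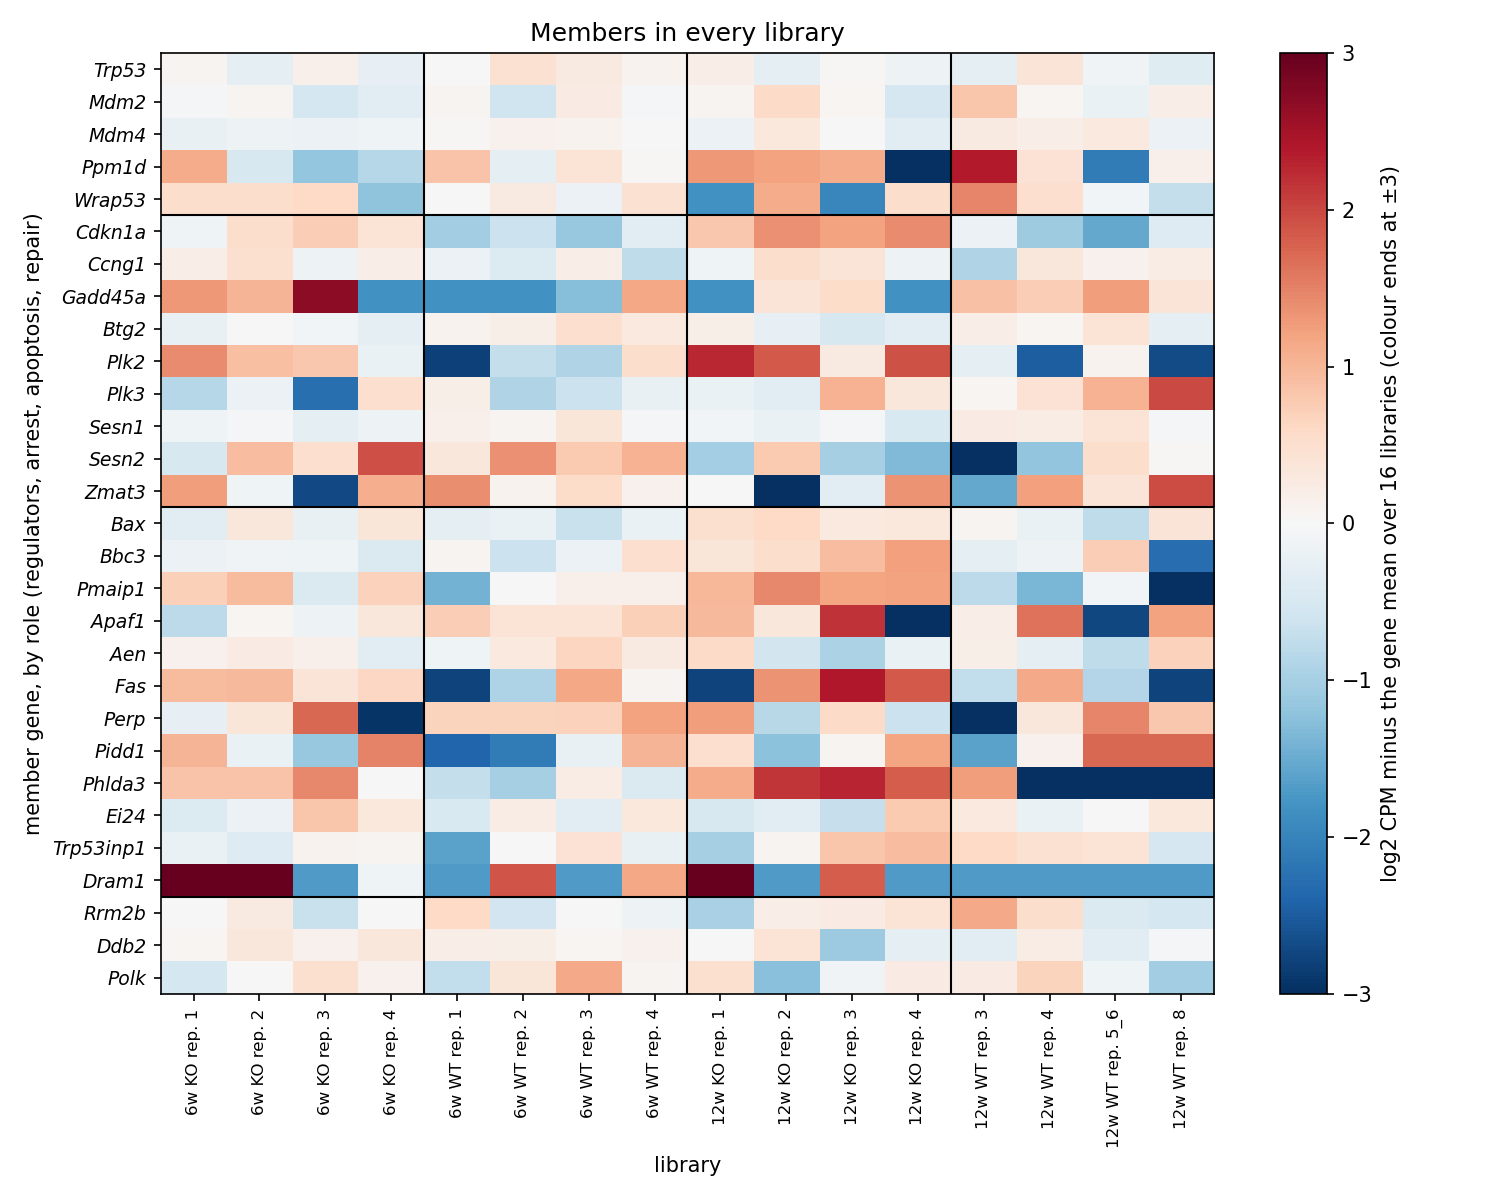
Log2 CPM of the 29 tested members (down the page, grouped by role) in the 16 libraries (across, KO left of WT at each age), each centred on its own mean over all libraries. Colour ends at 3 in either direction. Cdkn1a and Pmaip1 are above their means in all 4 libraries of 12-week KO and below them in all 4 of 12-week WT.

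Across the libraries of a group, 1 member was higher without overlap at 6 weeks (Cdkn1a) and 4 were lower (Mdm4, Btg2, Sesn1 and Apaf1), against 4.92% and 2.96% of all tested genes (7.88% in either direction). At 12 weeks 3 members were higher without overlap (Cdkn1a, Plk2 and Pmaip1) and 0 were lower, against 5.13% and 3.08% of all genes (8.20% in either direction). The 4 genes that lay lower without overlap at 6 weeks all overlapped at 12 weeks.

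The arrest and apoptosis genes were then compared as groups. At 12 weeks the median log2 change was -0.31 over the 9 arrest genes and 0.29 over the 12 tested apoptosis genes, a difference of -0.60. At 6 weeks the medians were -0.05 and 0.33, a difference of -0.37. In each library, the median over genes of the centred log2 CPM gives a level of either group. For the apoptosis genes at 12 weeks it was 0.54, 0.21, 0.88 and 0.86 in KO replicates 1 to 4, and -0.09, -0.17, -0.43 and -0.09 in WT replicates 3, 4, 5_6 and 8, so the groups did not overlap. For the arrest genes at 12 weeks it was -0.08, 0.39, 0.26 and -0.15 in KO, and -0.17, 0.21, 0.40 and 0.03 in WT, which overlapped. At 6 weeks the libraries overlapped in both groups of genes, with apoptosis medians from -0.03 to 0.30 in KO and from -0.59 to 0.29 in WT.

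The 12-week contrast rested on genes with few counts. With only the members that average at least 10 CPM over all libraries, a choice made after the values were seen, 7 arrest and 6 apoptosis genes remained. Their 12-week medians were 0.14 for arrest and 0.08 for apoptosis, a difference of 0.06 in place of -0.60. Their apoptosis levels per library then overlapped at 12 weeks, from 0.21 to 0.56 in KO and from -0.43 to 0.36 in WT. The 6 apoptosis members under 10 CPM had a median of 1.37 at 12 weeks. Of these, Phlda3 reached the filter's level in 4 KO libraries and 1 WT library of 12 weeks. The numbers were 3 and 1 for Fas, 2 and 0 for Dram1, and 4 and 3 for each of Bbc3, Perp and Pidd1. Genes kept mainly through their KO libraries favour a positive median, here and over all 12 tested apoptosis genes. Neither median, nor the levels per library, can be read apart from that filter. No p-value is given for these medians, since the members were chosen with results known.

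**Figure D4:**
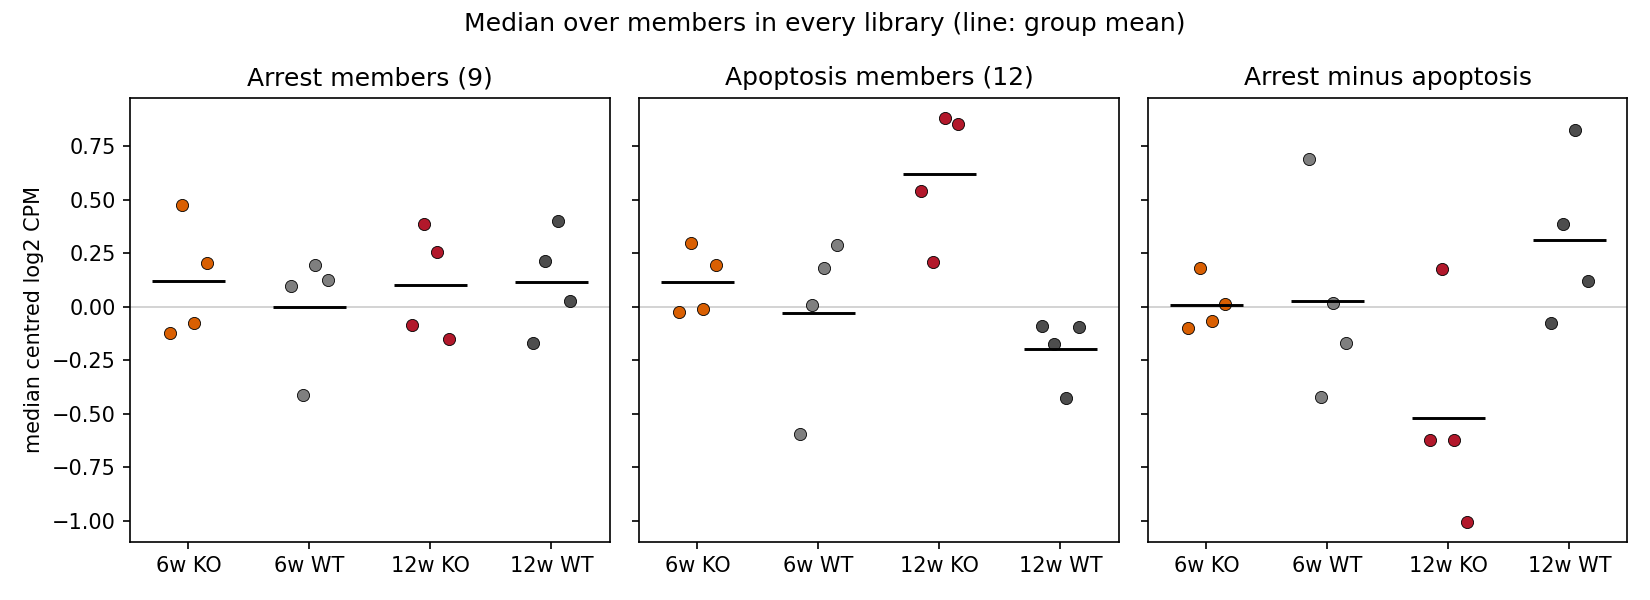
Median centred log2 CPM of the 9 arrest and the 12 tested apoptosis genes in each library and their difference, arrest minus apoptosis, in the right panel (y axis, log2; points are libraries, horizontal bars the group mean), KO left of WT at each age. The 12-week apoptosis values lie from 0.21 to 0.88 in KO and from -0.43 to -0.09 in WT, and the arrest values of KO and WT overlap at both ages.

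Between ages, 0 of the 29 members passed in KO or in WT with edgeR, where 0.0234% and 0.0117% of all genes did, and DESeq2 also called 0. In KO, 0.00585% of all genes were higher and 0.0176% lower at 12 weeks. In each genotype 3 members had an unadjusted p under 0.05, against 8.80% of all genes in KO and 7.44% in WT. Cdkn1a, Pmaip1 and Bbc3 were higher in every 12-week KO library than in every 6-week KO library, against 3.05% of all genes, and 0 were lower, against 3.51% (6.57% in either direction). The log2 change of Cdkn1a was 0.88 ± 0.28 in KO (edgeR adjusted p = 0.34), and in WT 0 members parted by age, against 5.31% of all genes (2.31% higher at 12 weeks). Sesn2 had the lower 12-week mean in both genotypes, with 3.01 to 13.4 CPM at 12 weeks and 5.55 to 30.1 CPM at 6 weeks in KO, and 0.649 to 11.2 CPM at 12 weeks and 9.81 to 20.3 CPM at 6 weeks in WT. Its log2 change with age was -1.56 ± 0.72 in KO and -1.74 ± 0.77 in WT, and neither passed (edgeR adjusted p = 0.56 and 0.63). In the test of whether the KO effect differed between ages, 0 members passed (0.00585% of all genes), 0 had an unadjusted p under 0.05, against 4.74% of all genes, and DESeq2 called 0. The effect of Cdkn1a was larger at 12 weeks by 0.79 ± 0.39 and that of Pmaip1 by 1.49 ± 0.72 on the log2 scale, and edgeR's unadjusted p was 0.065 and 0.056.

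The pathway was also followed in lists of genes outside the 31. Over all tested genes, 0.872% passed with edgeR at 6 weeks and 2.98% at 12 weeks, with median log2 changes of -0.02 and -0.03. Of 26 p53 kinases, cofactors and relatives, 23 were tested and 0 passed with edgeR at either age, with median log2 changes of 0.05 and 0.02. At an unadjusted p under 0.05 there were 1 at 6 weeks and 3 at 12 weeks, against 7.31% and 14.4% of all genes. The summed CPM overlapped at both ages. Of 38 further p53 targets, 34 were tested and 0 passed with edgeR, with medians of 0.18 and 0.22. At an unadjusted p under 0.05 there were 3 and 6 of these 34, against the same 7.31% and 14.4% of all genes. With DESeq2 0 genes of both lists passed at 6 weeks. At 12 weeks it called 1 of the 23 tested genes of the first list (Daxx, higher). It called 3 of the 34 of the second (Bid, Gtse1 and Rap2b), 2 of them higher and 1 lower. Gtse1 had no count in 12-week WT. Over all 17090 tested genes DESeq2 called 1158 at 12 weeks.

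Genes of other programs moved in the same libraries, and their part in the results on Cdkn1a and Pmaip1 was not tested. Of 16 interferon-stimulated genes, 10 were called higher by edgeR at 6 weeks and 14 at 12 weeks (14 and 15 by DESeq2); Rtp4 averaged 217 CPM in 12-week KO and 17.7 CPM in 12-week WT, and Ifitm3 111 CPM in KO and 5.85 CPM in WT. The summed interferon list ran from 974 to 2668 CPM in 12-week KO and from 126 to 203 CPM in 12-week WT. Of 19 tested proliferation genes, edgeR called 3 higher at 12 weeks (Bub1, E2f1 and Top2a) and 2 at 6 weeks (Ccnb2 and Top2a), and DESeq2 called 7 and 4. Their sum lay between 322.5 and 505 CPM in 12-week KO and between 106 and 182 CPM in 12-week WT, in the same libraries in which the cell cycle inhibitor Cdkn1a was higher. Of 14 tested immediate early genes, which respond to tissue handling as well as to signals, edgeR called 1, Atf3 at 12 weeks, with 33.3 CPM in KO and 10.9 CPM in WT. DESeq2 called Atf3 and Egr2 at 12 weeks and Egr1 at 6 weeks. The immediate early sum overlapped between KO and WT at both ages, at 859 to 952 CPM in 12-week KO and 729 to 907 CPM in 12-week WT.

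Markers of other cells and the mitochondrial share also differed. The summed CPM of 7 border-associated macrophage markers lay between 130 and 291 in 6-week KO and between 51.1 and 94.4 in 6-week WT, and between 112 and 187 in 12-week KO and between 7.79 and 54.2 in 12-week WT. All 7 had counts in each group, and edgeR called 1 of them, Ms4a7, higher at 12 weeks. DESeq2 called 4 higher at 12 weeks (Cd163, Mrc1, Ms4a7 and Pf4) and Ms4a7 at 6 weeks. Erythroid markers, 5 in number, summed to 13.2 to 110.1 CPM in 12-week KO and 2.38 to 34.2 CPM in 12-week WT, which overlapped. Their sums overlapped at 6 weeks as well, at 2.45 to 55.1 CPM in KO and 9.71 to 50.3 CPM in WT. With edgeR 0 of the 5 were called at either age, and DESeq2 called Hbb-bs higher at 12 weeks. The 6 monocyte markers summed to 8.11 to 29.8 CPM in 6-week KO and 5.85 to 18.7 CPM in 6-week WT, and to 12.9 to 27.7 CPM in 12-week KO and 1.081 to 11.4 CPM in 12-week WT, without overlap at 12 weeks. Of these markers, Ly6c2 and Chil3 had no count in either KO group or in 12-week WT. Endothelial and mural markers, 6 in number, summed to 11.7 to 40.2 CPM in 6-week KO and 52.8 to 77.4 CPM in 6-week WT, and overlapped at 12 weeks. Flt1, the only one called of the 3 that were tested, was higher at 12 weeks with edgeR (adjusted p = 0.043) and with DESeq2. Its mean was 6.85 CPM in 12-week KO, while no 12-week WT library had a count. At that age 2 of the 3 tested markers had a negative log2 change in KO, and the median of the 3 was -0.70. Mitochondrially encoded genes took 0.328% to 0.405% of counts in 6-week KO and 0.182% to 0.253% in 6-week WT, and 0.491% to 0.680% in 12-week KO and 0.276% to 0.385% in 12-week WT. The part of these differences in the results on the p53 genes was not tested.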

How the data were processed

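The authors deposited raw read counts per gene for each of the 16 libraries. Per the submitters' processing notes, build GRCm39 was used with TopHat, HTSeq 0.11.0, Picard 2.13.2, SAMtools 1.10, cutadapt 2.10 and FastQC 0.11.9; no source used here gives the strand setting or the annotation release. A count table of the whole series was not used here. Counts were tested in R 4.3.3 with edgeR 4.0.16: filterByExpr with a minimum count of 10, TMM scaling, and a robust quasi-likelihood fit of all 16 libraries with 1 term per group and 1 for sex. Two-sided p-values had Benjamini-Hochberg adjustment across 17090 genes, with a threshold of 0.05. The biological coefficient of variation was 0.649. CPM is the count relative to the TMM-scaled library size. Standard errors were taken as the size of the log2 change over the root of F. DESeq2 1.42.0, other scalings, filters, covariates and subsets of libraries were the alternatives. The labels do not say whether a library is 1 animal, so p-values measure the spread between libraries. The tests were checked on simulated data. Known changes were placed there only in genes with higher counts, so the check does not cover changes in members with few counts.

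The members and the gene lists were chosen with earlier results of these data known. Values of every library are given for Trp53, Mdm2, Cdkn1a, Bax, Bbc3 and any called member, and ranges for members whose KO and WT libraries do not overlap; Phlda3 and the remaining genes were named after their values were seen. From other lists at most 4 called genes are named. For a bound, a group without counts was given 3 counts in all, and counting intervals are at a level of 0.95. Genes with a close copy or an overlapping gene are uncertain. By the GENCODE M21 annotation, exons of Cdkn1a, Gadd45a, Plk3, Ei24, Rrm2b and Ddb2 overlap a gene on the opposite strand. Those of Bax overlap one on the same strand.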

Additional observations from a re-analysis of the deposited data

Results flagged for a closer look

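Levels of 12 members were checked in each of the 4 groups, 48 checks in all, for a library far from the other 3; chance puts about 1 in 20 such groups past the limit, and 2 were past it. Pmaip1 in 6-week WT replicate 1 had 9.38 CPM, below the other 3 libraries at 25.6 to 28.4 CPM, and the 6-week log2 change lay between 0.45 and 1.00 over the refits that left out 1 library. Phlda3 in 12-week WT replicate 3 had 3.89 CPM where the other 3 libraries had none. No explanation was tested for either.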

How the results depend on the processing

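For 12 members (Trp53, Mdm2, Mdm4, Cdkn1a, Btg2, Plk2, Sesn1, Bax, Bbc3, Pmaip1, Phlda3 and Apaf1), 600 refitted values over both ages were compared, and 559 kept their direction and their side of the threshold. At 6 weeks the 0 called members became 1, Cdkn1a, with DESeq2, without the filter on low counts and without 12-week WT replicates 3 and 8, and 0 to 1 over the refits that left out 1 library. At 12 weeks the 2 called members became 5 with DESeq2 (Cdkn1a, Phlda3, Plk2, Pmaip1 and Sesn1), 5 without the filter (Cdkn1a, Dram1, Phlda3, Plk2 and Pmaip1), 1 with each age fitted alone, 0 with a replicate block, and 1 to 2 with 1 library left out. The male-labelled libraries alone, and the fit without 12-week WT replicates 3 and 8, called Cdkn1a and Phlda3. The arrest minus apoptosis difference was 0.059 at 12 weeks with members of at least 10 CPM, an alternative chosen after seeing the data, and -0.85 to -0.48 with 1 library left out (-0.56 to -0.09 at 6 weeks). All genes called at 12 weeks numbered 510, against 1158 with DESeq2, 1073 without the filter, 204 with each age alone, 238 in the male-labelled libraries, 307 without 12-week WT replicates 3 and 8, 68 with the block and 328 to 464 with 1 library left out. At 6 weeks they numbered 149, against 366 with DESeq2, 353 without the filter, 32 in males, 94 with the block and 82 to 155 with 1 library left out. For 12 against 6 weeks in KO, 4 genes became 270 with DESeq2, 204 without the filter, 16 without the sex term, 10 without 12-week WT replicates 3 and 8, 0 in males and 0 with the block, and 1 to 7 with 1 library left out. In WT 2 became 152 with DESeq2, 194 without the filter, 1 in males, 0 with the block, and 1 to 4 with 1 library left out. For the difference of the effects 1 became 55 with DESeq2, 132 without the filter, and 2 both with total library size and without 12-week WT replicates 3 and 8. Fitting each age alone cannot compare ages. Nor can the replicate block, because its blocks lie within an age, so its counts of 0 between ages carry no information. Over the 29 tested members, the sign turned under some alternative for 11 at 6 weeks and 17 at 12 weeks, Cdkn1a and Pmaip1 not among them. Of the 12 members above, it turned for 3 at 12 weeks. Trp53 stood at -0.068 in males, -0.11 with the block, -0.22 without WT replicates 3 and 8, and -0.056 to 0.24 with 1 library left out. Mdm2 stood at 0.087 in males, 0.20 without WT replicates 3 and 8, and -0.37 to 0.12. Apaf1 stood at -0.13 with each age alone, -0.77 in males, -1.88 with the block, -0.021 without WT replicates 3 and 8, and -0.66 to 0.61. The cause was not tested. Libraries with the same replicate number correlated weakly, under the limit of r = 0.1 taken for pairing. The 4 such pairs at 6 weeks stood at r = 0.0031 to 0.0623 and the 2 at 12 weeks at -0.011 to -0.0066. Of 8 6-week libraries, 4 were closest to their own number. So few pairs cannot settle whether the numbers pair libraries. The median over all genes moved by at most 0.1 in each fit, but that of the members ran from -0.12 to 0.12 at 6 weeks and from -0.09 to 0.36 at 12 weeks. Members under 10 CPM are limited by depth.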
